A study of Mus musculus with 8 samples.

Results

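The expression of 9 Notch pathway genes was compared between neural stem cells (NSCs), the extended pluripotent stem cells (EPSCs) to which they were fused, the resulting hybrid cells, and embryonic stem cells (ESCs). The genes are the receptors Notch1, Notch2 and Notch3, the ligands Dll1, Dll3 and Jag1, and the Hes family target genes Hes1, Hes5 and Hey1. They were taken by their symbols from the 24354 genes of the RNA sequencing table, and all 9 were found and passed the filter on low values. Each group had 2 libraries, and both libraries of a group came from 1 line. The ESCs were wild-type (wt) E14 cells grown in serum and LIF on mitotically inactivated mouse embryonic fibroblast feeders. The NSCs came from OG2/ROSA26 mice, which carry an Oct4-GFP reporter and lacZ, and grew with EGF and FGF2 on gelatin without feeders. The EPSCs (wt, C57BL/6, labelled EPSC_1-p15) were derived from 8-cell embryos and kept in N2B27-LCDM medium, which holds human LIF, CHIR99021, dimethindene maleate and minocycline, on inactivated fibroblast feeders. The EPSC-NSC hybrid cells (labelled EPNSC_2-2-p10) were 1 near-tetraploid line that had been picked for Oct4-GFP after fusion with polyethylene glycol, and they were kept in the same medium on feeders. The medium and the genetic background therefore differ together with the cell type in each comparison except that of hybrid cells with EPSCs, which share the medium, while the hybrid cells also hold the NSC genome. Only NSCs grew without feeders. The paper names C3H feeders for EPSCs and hybrid cells and gives no strain for those of ESCs. The level of fibroblast genes also differed among the groups on feeders, as given below.

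Notch receptors sit in the cell membrane and are bound by Delta-like (Dll) and Jagged (Jag) ligands on a neighbouring cell. After binding, the proteases ADAM10 or ADAM17 and then gamma-secretase cut the receptor, and its intracellular domain moves to the nucleus, where it joins the DNA-binding protein RBPJ and a Mastermind co-activator (Maml genes). The complex turns on Hes and Hey genes, whose products are repressors of neuron-forming (proneural) genes. In the developing brain this pathway is known for keeping neural stem cells from differentiating.

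The values are FPKM, fragments per kilobase of transcript scaled for the depth of a library, and the way of scaling is not given. Fold changes are differences of log2(FPKM + 1), which understate the change of low genes, and were tested with limma across the 13239 genes whose mean reached 1 FPKM in any group. A gene was called at a Benjamini-Hochberg adjusted p under 0.05. Since both libraries of a group come from 1 line, the p-values measure only the spread between these libraries. The steps between low FPKM values gave depths of about 22000000 to 32600000 fragments per library, for an assumed fragment length of 200 bases. These are true depths only if FPKM were scaled to the fragments of each library alone. The labels were checked with marker genes. Fabp7, a radial glia gene, was at 2798 and 2709 FPKM in NSCs and at most 0.238 elsewhere, and Pou5f1 was listed at 0 in both NSC libraries. The summed FPKM of 10 fibroblast genes was 4.97 and 5.13 in NSCs, 12.2 and 13.4 in ESCs, 86.9 and 83.9 in EPSCs, and 332 and 248 in hybrid cells. The fibroblast genes therefore move with several of the comparisons below. In bulk RNA, fewer cells of a type and less RNA per cell cannot be told apart.

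In the comparison of hybrid cells with their NSC parent, 7 of the 9 genes were lower in hybrid cells. These were the 3 receptors, Dll1, Dll3, Hes5 and Hey1. Jag1 and Hes1 were not called. Of all genes tested, 42.0% were lower and 44.5% were higher in hybrid cells, so a call alone says little here. Under a stricter rule, which asks for group means that differ by more than 3 times with the higher mean over 3 FPKM, 6 of the 9 were lower in hybrid cells against 16.3% of all genes. The median log2 fold change over all genes tested was 0.06. It became -0.50 when the FPKM of each library were scaled to a sum of 1000000, because NSC libraries summed to 415200 and 415400 FPKM and those of the other groups to between 600700 and 653800. After this scaling, Hes1 was also called lower in hybrid cells (log2 fold change -0.49, limma adjusted p = 0.000161) and Jag1 had the same value of -0.49 without a call (adjusted p = 0.0596). The calls of the other 7 genes held.

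**Figure D1:**
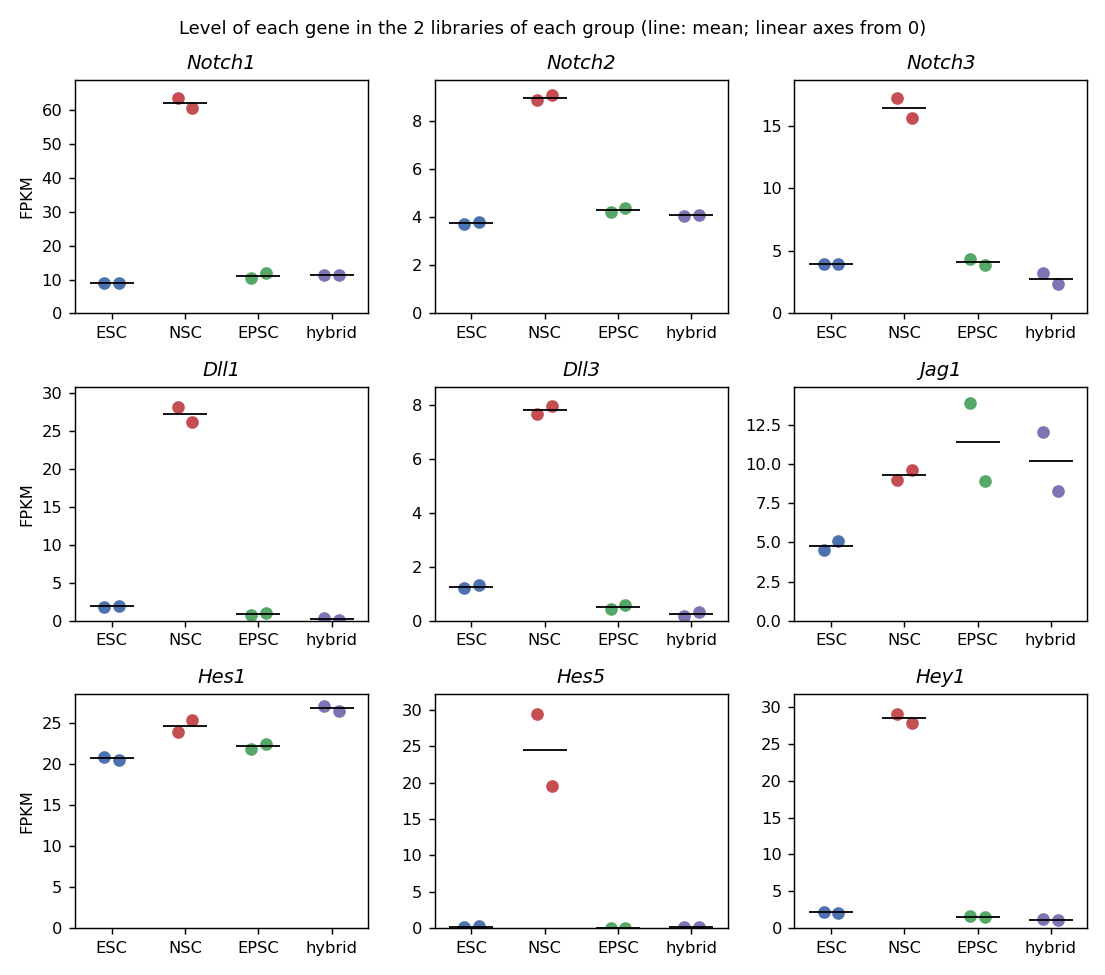
FPKM (y axis, linear and starting at 0, with its own range in each panel) of the 9 genes in ESCs, NSCs, EPSCs and hybrid cells. Each point is 1 library and each line is the mean of 2 libraries. The NSC libraries stand above the other groups for 7 genes, but not for Jag1 and Hes1.

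Notch1, the main receptor of neural stem cells, lies on chr2:26457902-26503822 (minus strand, GRCm38.p6). It was at 63.5 and 60.6 FPKM in NSCs, 10.5 and 11.8 in EPSCs, 11.3 and 11.2 in hybrid cells, and 8.96 and 8.94 in ESCs. All NSC values were above all others, while the EPSC and hybrid values overlapped. The mean was 62.1 ± 2.03 in NSCs and 11.3 ± 0.0290 in hybrid cells (SD, n = 2), a ratio of 5.51 (log2 fold change -2.36, SE 0.07, limma adjusted p = 4.64e-08). Between hybrid cells and EPSCs the log2 fold change was 0.01, with a 95% interval of -0.15 to 0.18. It was higher in EPSCs than in ESCs by 0.29 on the log2 scale (adjusted p = 0.00966), and this call was lost without ESC replicate 1 (adjusted p = 0.0536) or ESC replicate 2 (adjusted p = 0.0549).

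Notch2, a receptor with the same domain plan, lies on chr3:98013538-98150367 (plus strand). It differed less between the cell types, with 8.87 and 9.09 FPKM in NSCs, 4.22 and 4.38 in EPSCs, 4.05 and 4.11 in hybrid cells, and 3.73 and 3.83 in ESCs. The groups did not overlap, but only the step from NSCs to the others was large (hybrid cells against NSCs, log2 fold change -0.97, limma adjusted p = 5.26e-06). The difference of hybrid cells from EPSCs was -0.06, with a 95% interval of -0.23 to 0.11, and Notch2 was also not called between EPSCs and ESCs.

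Notch3, a receptor known from radial glia and from vascular smooth muscle, lies on chr17:32120820-32166896 (minus strand). Its levels were 17.2 and 15.6 FPKM in NSCs, 4.38 and 3.85 in EPSCs, 3.22 and 2.34 in hybrid cells, and 3.94 and 3.98 in ESCs. Hybrid cells were the lowest group and did not overlap with EPSCs, with a mean of 2.78 ± 0.623 against 4.12 ± 0.378 (SD, n = 2). The log2 fold change was -2.21 against NSCs (limma adjusted p = 1.15e-06) and -0.44 against EPSCs (adjusted p = 0.0238). The call against EPSCs was lost when any 1 ESC or NSC library was left out (adjusted p between 0.0516 and 0.0524), without EPSC replicate 1 (0.103) and without hybrid replicate 2 (0.075).

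The sum of the 3 receptors was 89.6 and 85.4 FPKM in NSCs, 19.1 and 20.0 in EPSCs, 18.6 and 17.7 in hybrid cells, and 16.6 and 16.7 in ESCs. The fourth receptor, Notch4, which is best known from endothelial cells, had the opposite order. It was at 0.164 and 0.130 FPKM in NSCs, 1.74 and 1.38 in EPSCs, 2.92 and 1.81 in hybrid cells, and 5.75 and 6.33 in ESCs. Notch4 was higher in hybrid cells than in NSCs by 1.53 on the log2 scale (limma adjusted p = 3.86e-05) and lower in EPSCs than in ESCs (log2 fold change -1.46, adjusted p = 0.000204). Notch1 made up 70.8 ± 0.123% of the FPKM of the 4 receptors in NSCs and 55.1 ± 3.61% in hybrid cells, while Notch4 made up 0.167 ± 0.0223% and 11.4 ± 3.05% (SD, n = 2). In ESCs, Notch4 reached 26.5 ± 1.24%.

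**Figure D2:**
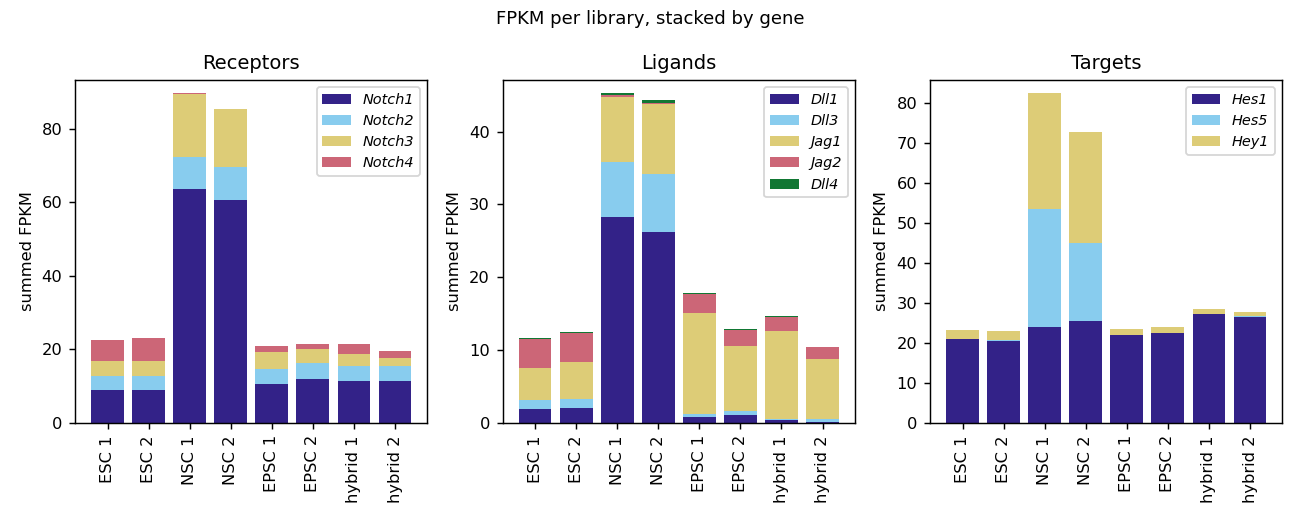
Summed FPKM (y axis, linear, starting at 0) in each of the 8 libraries (x axis), stacked by gene for the 4 receptors, 5 ligands and 3 target genes. Notch1, Dll1, Hes5 and Hey1 fill most of the NSC bars, and Jag1 and Hes1 most of the ligand and target bars of EPSCs and hybrid cells.

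Among the ligands, Dll1 and Dll3 were high in NSCs and lowest in hybrid cells, and Jag1 followed neither. Dll1, which activates Notch receptors on neighbouring cells, lies on chr17:15367354-15376932 (minus strand). It was at 28.2 and 26.2 FPKM in NSCs, 1.85 and 1.93 in ESCs, 0.770 and 1.05 in EPSCs, and 0.361 and 0.136 in hybrid cells. No groups overlapped. The ratio of means was 110 between NSCs and hybrid cells (log2 fold change -4.50, limma adjusted p = 2.32e-08) and 3.66 between EPSCs and hybrid cells (log2 fold change -0.62, adjusted p = 0.00516). The lower level in hybrid cells than in EPSCs was called under each of 15 alternative settings, with adjusted p between 0.00291 and 0.0394. Some of these settings, such as leaving out an ESC or NSC library, keep the hybrid and EPSC values unchanged, so the settings are not independent. The mean of Dll1 was under 1 FPKM in EPSCs (0.910) and in hybrid cells (0.248), and it passed the filter through NSCs and ESCs. The ratios rest on the low hybrid values, and without hybrid replicate 1 they were 200.1 against NSCs and 6.68 against EPSCs. The hybrid values rest on about 29 and 10 fragments, and those of EPSCs on about 57 and 81.

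Dll3, a divergent Delta-like protein that acts inside the cell and does not activate receptors on neighbours, lies on chr7:28293555-28301785 (minus strand). It was at 7.67 and 7.95 FPKM in NSCs, 1.21 and 1.31 in ESCs, 0.416 and 0.599 in EPSCs, and 0.191 and 0.314 in hybrid cells, the same order as for Dll1 and again without overlap. The log2 fold change of hybrid cells was -2.82 against NSCs (limma adjusted p = 6.77e-08) and -0.27 against EPSCs (adjusted p = 0.0482). Its means in EPSCs and in hybrid cells were under 1 FPKM, so Dll3 too passed the filter through NSCs and ESCs. The difference from EPSCs rests on about 11 and 17 fragments in hybrid cells against 22 and 33 in EPSCs. It was not called when any 1 ESC library (adjusted p up to 0.0804) or NSC library (up to 0.0674), EPSC replicate 2 (0.2) or hybrid replicate 1 (0.168) was left out, or when FPKM were scaled to a common sum (0.0513).

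Jag1, the Jagged ligand that also acts in vascular, skeletal and ear development, lies on chr2:137081451-137116520 (minus strand). It was at 8.95 and 9.59 FPKM in NSCs, 13.9 and 8.90 in EPSCs, 12.1 and 8.26 in hybrid cells, and 4.48 and 5.10 in ESCs. The EPSC, hybrid and NSC values overlapped, and the spread within EPSCs and within hybrid cells was wider than the distance between their means of 11.4 and 10.2 FPKM. The log2 fold change of hybrid cells was 0.10 against NSCs (95% interval -0.41 to 0.61) and -0.14 against EPSCs (-0.65 to 0.37), and neither was called. Leaving out hybrid replicate 1 turned the first to -0.15, and leaving out EPSC replicate 1 turned the second to 0.15. ESCs were below all other libraries, and Jag1 was higher in EPSCs than in ESCs by 1.07 on the log2 scale (limma adjusted p = 0.0041). Of the 10 fibroblast genes, 9 were also called higher in EPSCs than in ESCs, where 33.7% of all genes were higher. Pdgfrb was not called (limma adjusted p = 0.466). The part of these fibroblast genes in the Jag1 values was not tested.

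The shares of the ligands were computed with Jag2 and Dll4 included. Between NSCs and hybrid cells they mostly restate the lower Dll1, since Jag1 itself was not called there, whereas between ESCs and EPSCs Jag1 itself was higher in EPSCs. Dll1 made up 60.7 ± 2.17% of the summed FPKM of the 5 ligands in NSCs, while its share was 6.26 ± 2.73% in EPSCs and 1.89 ± 0.820% in hybrid cells. The share of Jag1 was 20.7 ± 1.33% in NSCs, and it reached 40.0 ± 1.67% in ESCs, 73.8 ± 6.17% in EPSCs and a share of 81.1 ± 2.31% in hybrid cells (SD, n = 2). Jag2 was at 0.155 and 0.207 FPKM in NSCs and at 1.95 and 1.65 in hybrid cells, and thus higher in hybrid cells (log2 fold change 1.24, limma adjusted p = 6.21e-06). Dll4 stayed under 0.363 FPKM in all 8 libraries and was not tested.

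Among the target genes, Hes5 and Hey1 were NSC genes, and Hes1 was present at a similar level in all 4 groups. Hes5 lies on chr4:154960626-154962372 (plus strand), and its transcription in neural stem cells is known to depend on Notch. It was at 29.5 and 19.5 FPKM in NSCs, 0.169 and 0.214 in ESCs, 0 and 0.0408 in EPSCs, and 0.0784 and 0.165 in hybrid cells. The NSC values correspond to about 902 and 603 fragments, and those of EPSCs to 0 and 1. Hybrid cells had about 2 and 4 fragments, of which the first is under the level of 3 fragments that a count of 0 allows (0.117 FPKM in that library). The fitted log2 fold change was -4.48 against NSCs (limma adjusted p = 1.42e-07), a value that depends on the pseudocount, and no ratio is given for EPSCs or hybrid cells. Hes5 was not called between hybrid cells and EPSCs (adjusted p = 0.547), although with a pseudocount of 0.1 it was called higher in hybrid cells (adjusted p = 0.0463), a difference that rests on these few fragments.

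The Hes5 promoter window is shown because it was the only one among the 7 of the 9 genes with a RefSeq entry (GRCm38.p6, 250 bases before to 50 bases after the start) that holds GTGGGAA, the core of the sequence that RBPJ binds. The windows were searched on both strands for TGGGAA, for the longer GTGGGAA, which contains it, and for CACNAG, a sequence that HES repressors bind. Capitals mark the matches, TTCCCAC or TTCCCA being a match on the opposite strand. The window of Lfng, the pathway gene with the largest fall from NSCs to hybrid cells on the log2(FPKM + 1) scale, is set beside it.
Hes5, chr4:154960673-154960972, plus strand: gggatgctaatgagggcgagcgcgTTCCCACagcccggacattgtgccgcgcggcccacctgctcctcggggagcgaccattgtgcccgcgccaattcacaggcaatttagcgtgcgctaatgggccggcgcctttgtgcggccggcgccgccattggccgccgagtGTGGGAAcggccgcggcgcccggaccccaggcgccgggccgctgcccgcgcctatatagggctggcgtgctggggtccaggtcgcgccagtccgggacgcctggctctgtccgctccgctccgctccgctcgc
Lfng, chr5:140607091-140607390, plus strand: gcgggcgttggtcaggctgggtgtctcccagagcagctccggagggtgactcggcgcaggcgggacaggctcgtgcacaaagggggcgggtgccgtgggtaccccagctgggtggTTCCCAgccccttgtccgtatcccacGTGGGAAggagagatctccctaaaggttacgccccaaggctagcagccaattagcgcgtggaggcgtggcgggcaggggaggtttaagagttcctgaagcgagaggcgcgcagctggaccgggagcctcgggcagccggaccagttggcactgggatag
The Hes5 window belongs to a transcript start at position 154960923, which lies 297 bases inside the gene as annotated above, and distances are counted from that start. It holds GTGGGAA at 226 bases before the start on the opposite strand and at 83 bases before it on the gene's strand, and Lfng holds it once, at 109 bases before the start, beside 1 further TGGGAA. Of 3 other target genes whose windows were searched, Hey2 holds GTGGGAA 2 times, and Hes6 and Nrarp hold neither GTGGGAA nor TGGGAA. Of 32851 windows of this length, 6.38% hold GTGGGAA and 0.256% hold it at least 2 times. TGGGAA occurs in 25.6% of them and CACNAG in 42.5%. CACNAG was found 3 times in the window of Notch1, 2 times in that of Notch3, and once each in those of Notch2 and Dll1, where a second of its 2 windows holds it. The windows of Dll3 and Jag1 hold none of these letters. A match describes the sequence only, and no binding was measured.

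Hey1, a repressor with a related structure that is induced by Notch in many tissues, lies on chr3:8663359-8667038 (minus strand). It was at 29.1 and 27.8 FPKM in NSCs, 2.21 and 2.09 in ESCs, 1.56 and 1.48 in EPSCs, and 1.23 and 1.05 in hybrid cells. No groups overlapped. The mean in NSCs was 24.97 times that in hybrid cells (log2 fold change -3.78, limma adjusted p = 1.04e-08). Hybrid cells were lower than EPSCs by a ratio of 1.33 (log2 fold change -0.24, adjusted p = 0.0491). That call was lost when any 1 library other than hybrid replicate 1 was left out (adjusted p between 0.0766 and 0.144).

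Hes1, a repressor whose level oscillates in neural progenitors and in ESCs, lies on chr16:30065357-30067796 (plus strand). It was at 23.9 and 25.4 FPKM in NSCs, 27.1 and 26.5 in hybrid cells, 21.9 and 22.4 in EPSCs, and 20.9 and 20.5 in ESCs. The groups did not overlap, yet the highest mean, 26.8 ± 0.443 in hybrid cells, was only 1.30 times the lowest, 20.7 ± 0.261 in ESCs (SD, n = 2). Hybrid cells were higher than EPSCs by 0.26 on the log2 scale (limma adjusted p = 0.00857), and the call held in every alternative except the fit of these 4 libraries alone (adjusted p = 0.0615). Against NSCs, the log2 fold change of 0.12 was not called (95% interval -0.02 to 0.25), and it turned to -0.49 when FPKM were scaled to a common sum. Hes1 made up 31.9 ± 4.19% of the FPKM of the 3 target genes in NSCs, against 89.8 ± 0.0787% in ESCs and 93.5 ± 0.227% in EPSCs, with the highest share, 95.5 ± 0.139%, in hybrid cells (SD, n = 2).

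Between hybrid cells and EPSCs, which shared the medium and the kind of feeder, 4 of the 9 genes were lower (Notch3, Dll1, Dll3 and Hey1) and 1 was higher (Hes1) in hybrid cells. Of all genes tested, 21.9% were lower and 22.5% were higher. Dll1 and Dll3 had means under 1 FPKM in both of these groups and were tested because of their levels in NSCs and ESCs. None of the 9 passed the 3-fold rule, which 1.59% of all genes passed in either direction. When the 2 groups were fitted alone, 1 of the 9 was called (Dll1), and when single libraries were left out, between 2 and 4 were. All 10 fibroblast genes were higher in hybrid cells than in EPSCs, with a median log2 fold change of 1.61 and a summed level of 248 to 332 against 83.9 to 86.9 FPKM. The smallest of them in EPSCs, Pdgfrb, was at 0.761 and 0.933 FPKM. The part of feeder RNA in the levels of the 9 genes was not tested.

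**Figure D3:**
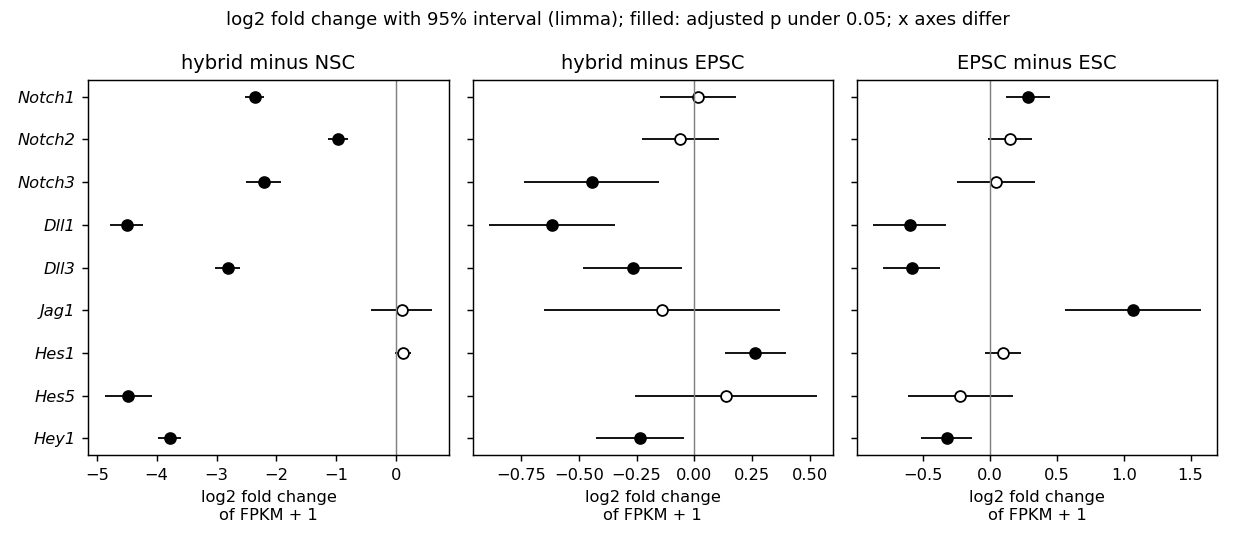
Log2 fold change of FPKM + 1 (x axis, with its own range in each panel) for the 9 genes in hybrid cells minus NSCs, hybrid cells minus EPSCs, and EPSCs minus ESCs. Points are limma estimates from 2 libraries per group, lines are 95% intervals, and filled points have an adjusted p under 0.05. Changes against NSCs reach -4.50, and those against EPSCs stay between -0.62 and 0.26.

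On a scale on which the NSC mean is 0 and the EPSC mean is 1, hybrid cells were at 0.994 for Notch1 and at 0.971 for Hes5, where 1 is the level of the EPSC parent. Hey1 was at 1.07, Dll3 at 1.10, Dll1 at 1.16 and Notch3 at 1.25, past the EPSC level on the side away from NSCs. These are descriptions on the log2(FPKM + 1) scale and carry no test. Over the 6225 genes tested whose parents differed by more than 1 on this scale, the median lay at 0.967 and the quartiles at 0.831 and 1.08. The remaining 3 genes differed too little between the parents to be placed.

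EPSCs and NSCs, the parents before fusion, differed in 8 of the 9 genes, each of them lower in EPSCs, against 41.0% of all genes tested. The exception was Jag1 (log2 fold change 0.24, limma adjusted p = 0.323), which was called higher in EPSCs without EPSC replicate 2 (adjusted p = 0.0421). Hes1 was lower by only 0.15 on the log2 scale (adjusted p = 0.04), a call lost without either EPSC library, either ESC library or NSC replicate 2 (adjusted p between 0.0634 and 0.177) and in the fit with the replicate number as a block (adjusted p = 0.055). The Hes1 call was also lost when the 2 groups were fitted alone. With FPKM scaled to a common sum, the log2 fold change of Hes1 was -0.75 and called (limma adjusted p = 1.23e-05). The 3-fold rule was passed by 6 of the 9, lower in EPSCs, and by 16.5% of all genes. In ESCs against the same NSC libraries, all 9 were lower, against 41.9% of all genes, and 6 passed the 3-fold rule, against 15.9%. The Jag1 call there (log2 fold change -0.83, adjusted p = 0.00804) was lost without ESC replicate 1 (0.0545) or NSC replicate 2 (0.0572).

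The pluripotent lines also differed among themselves. In EPSCs against ESCs, Notch1 and Jag1 were higher, and Dll1 (log2 fold change -0.60, limma adjusted p = 0.00324), Dll3 (-0.59, adjusted p = 0.00114) and Hey1 (-0.32, adjusted p = 0.0104) were lower. The Hey1 call was lost without ESC replicate 1 (adjusted p = 0.0704). Hes5, with about 6 and 7 fragments in ESCs, was not called (adjusted p = 0.28). It was called lower in EPSCs when the 2 groups were fitted alone (limma adjusted p = 0.012) and when either NSC library was left out. Of all genes, 33.7% were higher and 27.3% lower, so the 2 and 3 genes called are close to the background. None of the 9 passed the 3-fold rule (4.72% of all genes). Hybrid cells against the same ESC libraries had Notch1, Jag1 and Hes1 higher (35.3% of all genes) and Notch3, Dll1, Dll3 and Hey1 lower (30.2%), with Dll1 at -1.22 (adjusted p = 9.14e-05), and again none passed the 3-fold rule (6.68%). Of these, the call of Notch3 was lost when the 2 groups were fitted alone (limma adjusted p = 0.0617). It was also lost when hybrid replicate 2 or either ESC library was left out, and the call of Jag1 was lost without ESC replicate 1.

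The other genes of the pathway were read from a list of 70, of which 58 passed the filter on low values. In hybrid cells against NSCs, 22 were higher, 30 were lower and 6 were not called, or 42.3% higher of those called against 51.5% over all genes. The median log2 fold change was -0.31 against 0.06 over all genes. With FPKM scaled to a common sum, 16 were higher and 36 lower, or 30.8% higher of those called, and over all genes 4244 were higher and 8055 lower, or 34.5% higher. Of the receptor cleavage genes, 8 of 9 were lower and 1, Psen2, was higher, where 42.0% of all genes were lower, and the list itself was not tested. Adam10, which makes the first cut of the bound receptor, was at 64.0 and 70.0 FPKM in NSCs and 10.4 and 11.3 in hybrid cells (log2 fold change -2.52, limma adjusted p = 8.32e-08). Among the nuclear complex and its co-activators, 5 were higher and 4 lower. Rbpj, which carries the complex to DNA, was at 13.9 and 15.2 FPKM in NSCs and 74.3 and 66.6 in hybrid cells, a ratio of 4.84 (adjusted p = 6.8e-08), and the sum scaling did not change its direction. The ratio of Rbpj to Notch1 in FPKM was 0.235 ± 0.0228 in NSCs and 6.25 ± 0.466 in hybrid cells, and it was 8.44 ± 0.424 in EPSCs and 8.61 ± 0.110 in ESCs (SD, n = 2).

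**Figure D4:**
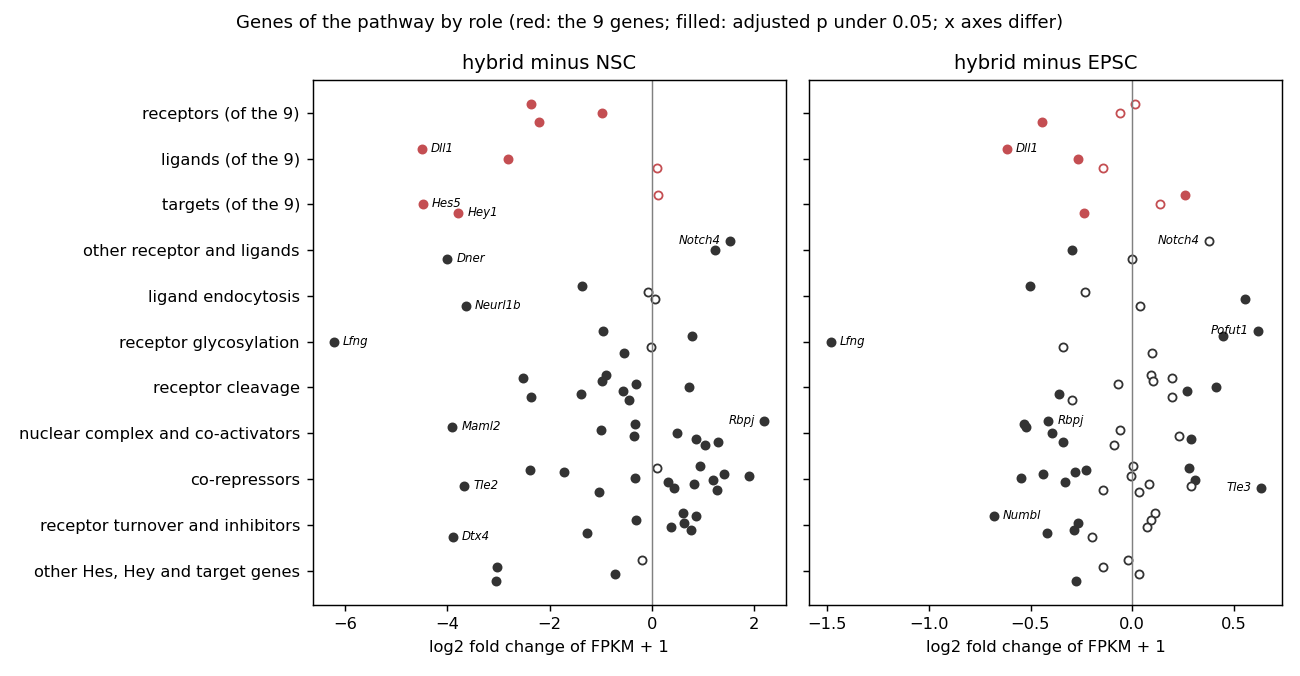
Log2 fold change of FPKM + 1 (x axis, with its own range in each panel) of the 9 genes (red) and the other pathway genes tested except the proneural genes (black), by role (y axis), for hybrid cells minus NSCs and minus EPSCs. Each point is 1 gene, and filled points have a limma adjusted p under 0.05. Against NSCs, Lfng is lowest at -6.22 and Rbpj highest.

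Among the other pathway genes with the largest change of log2(FPKM + 1) between hybrid cells and NSCs, Lfng, Dner, Maml2 and Dtx4 were lower in hybrid cells. Lfng, a fringe enzyme that adds sugar to Notch and alters its response to ligands, was at 120 and 119 FPKM in NSCs and 0.580 and 0.655 in hybrid cells (log2 fold change -6.22, limma adjusted p = 3.47e-09). The neuronal surface protein gene Dner (-4.00), the co-activator Maml2 (-3.90) and the Deltex gene Dtx4 (-3.90), whose family binds the Notch intracellular domain, followed. Of the other Hes, Hey and target genes, Hes6 was at 63.9 and 60.7 FPKM in NSCs and 7.22 and 6.39 in hybrid cells (log2 fold change -3.02, adjusted p = 1.73e-08). Nrarp, a feedback inhibitor induced by Notch, was at 16.9 and 17.6 FPKM in NSCs and 1.12 and 1.31 in hybrid cells (log2 fold change -3.04, adjusted p = 3.74e-08). Hey2 was also lower, at 1.47 and 1.03 against 0.322 and 0.415 FPKM. Of the 7 genes of this list, these 3 were lower, Hes3 was not called (adjusted p = 0.0625), and 3 were too low to be tested. Among the latter, Heyl was at 0 and 0.00799 FPKM in NSCs and 0.220 and 0.213 in hybrid cells.

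Between hybrid cells and EPSCs, 20 of these 58 genes were lower, 9 were higher and 29 were not called, where 21.9% of all genes were lower and 22.5% higher. The median was -0.06 against 0 over all genes. On the log2(FPKM + 1) scale, Lfng was again the gene with the largest change, at 3.94 and 3.14 FPKM in EPSCs (log2 fold change -1.48, limma adjusted p = 0.000143). The proneural gene Neurog1 was at 1.37 and 1.55 FPKM in EPSCs and 0.0286 and 0.120 in hybrid cells (log2 fold change -1.19, adjusted p = 0.000133), and was listed at 0 in both NSC libraries. By the ratio of EPSC to hybrid means, Neurog1 changed more than Lfng, 19.6 against 5.73, with low hybrid values. Numbl, which encodes a relative of the Notch inhibitor Numb, was lower in hybrid cells (-0.68, adjusted p = 0.00343). The co-repressor Tle3 (0.63, adjusted p = 0.00329) and Pofut1, which adds the fucose that fringe enzymes extend (0.62, adjusted p = 0.00216), were higher. Rbpj was lower in hybrid cells than in EPSCs (-0.41, adjusted p = 0.00359). In the fit of these 4 libraries alone, 11 of the 58 were called in place of 29.

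The genes whose pattern over the 8 libraries was nearest to each of the 9 were found by the root mean square difference of centred log2(FPKM + 1), as a description. Nearest to Notch1 were Aldh5a1, Clip4 and Klhl32, with differences of 0.0808 to 0.0853, and nearest to Notch2 were Maml3, Hif1a and P2rx6. Nearest to Notch3 were Tef, Ptges3l and Dip2c, to Dll1 Fndc4, Nsg2 and Nnat, and to Dll3 Plekhh3, Ppp6r2 and Top2b. Nearest to Hes5 were Gfap, Arhgef4 and Sardh, and to Hey1 Pde2a, Nova1 and Pnmal2. Gfap, an astroglial filament gene, was at 29.2 and 24.8 FPKM in NSCs and at most 0.120 elsewhere. These 7 genes each shared a correlation over 0.95 with between 1632 and 2208 genes, since the difference of NSCs from the other libraries dominates. Jag1 shared one with only 11 genes, and Zfp39, A930013F10Rik and Zfp790 were nearest. Hes1 shared one with 34, and Pigk, Ipo4 and Ubxn4 were nearest.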

How the data were processed

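RNA from 8 libraries, 2 per group, was made into poly-A libraries. The authors used skewer 0.2.2 for trimming and STAR 2.7.9a for alignment to mm10, and deposited FPKM per gene and library from Cuffnorm 2.2.1, with replicates not pooled. The annotation, the strand setting of the counting and the library normalization are not given in the sources used here. Genes antisense to or overlapping Notch1, Notch2, Notch3, Dll1 and Hes5 in GENCODE M21 could share reads with them. The depth in reads was estimated from the steps of low FPKM in 2247 genes, and precision is limited by counting in low genes (a floor of 3 fragments).

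Groups were compared with limma 3.58.1 in R 4.3.3 (lmFit, eBayes with trend) on log2(FPKM + 1), in one fit of 8 libraries with 4 residual and 3.25 prior degrees of freedom, for genes with a mean of at least 1 FPKM in a group. Tests were two-sided. An exact permutation test of 2 against 2 libraries cannot go below 0.333 and was not used. Members, lists and rules were chosen with earlier results of these data known. The text names the 9 genes, the 5 other pathway genes with the largest change among those called and not overlapping in each comparison of hybrid cells with a parent, the 3 nearest genes of each of the 9, genes needed for their role, and markers. 1 gene among those so chosen is not reported here. Psen2, Pdgfrb and Gfap were named after their values were seen. On simulated data for hybrid cells against EPSCs, 88 of 100 genes changed by 1 on the log2 scale, 100 of 100 changed by 2, and 8 unchanged genes were called. The simulation drew every library independently, with the same spread in all groups, and changed only 200 of 13239 genes. It therefore cannot show how unequal spread or the use of 1 line per group affects the real calls. Other pseudocounts, filters, scalings, a replicate block, fits of 2 groups and leaving out each library were tried. Python 3.11.15 (pandas 2.3.3, numpy 2.4.6) and RefSeq promoter windows of GRCm38.p6 were used, and Hes1 and Hey1 had no entry.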

Additional observations from a re-analysis of the deposited data

How the results depend on the processing

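Over 15 alternative settings, chosen like the lists with earlier results known, the 7 calls of hybrid cells against NSCs held. The calls between hybrid cells and EPSCs were less stable. In place of the 5 members called there, 4 were called with FPKM scaled to a common sum (Dll3 lost its call), 3 with no filter on low values, 1 when the 2 groups were fitted alone, and between 2 and 4 when 1 library was left out. With the groups fitted alone, 11 other pathway genes were called there in place of 29, and 2811 genes in all in place of 5881. Between EPSCs and ESCs, 5 members were called, and between 3 and 6 when 1 library was left out. With both thresholds of the 3-fold rule at 2, 1 member passed in place of 0 for EPSCs against ESCs and 1 for hybrid cells against ESCs, and with FPKM scaled to a common sum, 1 passed in the latter.

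Scaling FPKM to a common sum reversed the log2 fold change of Jag1 (-0.49) and Hes1 (-0.49) in hybrid cells against NSCs, of Jag1 in EPSCs against NSCs (-0.33) and of Notch3 in EPSCs against ESCs (-0.0091). Leaving out 1 library at a time gave -0.15 to 0.35 for Jag1 in hybrid cells against NSCs and -0.43 to 0.15 against EPSCs. It gave -0.0642 to 0.0936 for Notch1 in hybrid cells against EPSCs, -0.0529 to 0.535 for Jag1 in EPSCs against NSCs, and -0.0333 to 0.118 for Notch3 in EPSCs against ESCs. A pseudocount of 0.1 moved the position of hybrid cells between the parents to 1.34 for Dll1, 1.21 for Dll3, 0.886 for Hes5 and 1.09 for Hey1. It also brought Hes5 past the threshold in hybrid cells against EPSCs (adjusted p = 0.0463) and in EPSCs against ESCs (adjusted p = 0.0066), where levels rest on few fragments. The cause of these changes was not tested. Depth limits Hes5 outside NSCs, and Dll1 and Dll3 in EPSCs and hybrid cells.

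The correlation of deviations of libraries with the same number was 0.28 for hybrid cells against EPSCs and between -0.11 and 0.07 in the other 5 comparisons. The labels give no shared origin for a number and each group has 2 libraries, so the numbers were not taken to pair them. With the replicate number as a block, 6060 genes were called in hybrid cells against EPSCs in place of 5881, and of the members only Hes1 in EPSCs against NSCs lost its call (adjusted p = 0.055). For ESCs against NSCs, the replicate block gave 11265 genes in place of 11212, and with the ESC numbers crossed, chosen after seeing the data, 11251.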
